A study of Rattus norvegicus with 35 samples.

Results

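Pparg, Cebpa, Cebpb and Cebpd encode PPAR gamma and the CCAAT/enhancer binding proteins (C/EBP) alpha, beta and delta. Every probe set annotated to 1 of these 4 genes was taken, whatever its signal, which gave 6 of the 15866 probe sets analysed and 4 of the 10411 genes. A probe set is a group of short array probes for 1 gene whose brightness the authors had combined into a signal on a linear scale. Cebpd had 3 probe sets, and the other genes had 1 each. The tissues were 11 normal mammary glands of the rat and 24 rat mammary tumours, 1 array each. Of the normal glands, 8 are titled NewN, and the others are titled X27.1N, X28.1N and Young. The tumours, whose titles begin with X, were induced with N-methyl-N-nitrosurea (NMU), an alkylating carcinogen, and are labelled as frozen. Strain, age, dose, pairing and batch are not given for any gland or tumour. The labels do not state whether each sample is from its own animal, so the p-values reflect no more than the variation among these arrays, some of it possibly technical.

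PPAR gamma is a nuclear receptor that pairs with a retinoid X receptor on DNA, and C/EBP proteins are leucine zipper factors that bind DNA as dimers with each other. In a fat cell precursor the beta and delta forms come first and switch on PPAR gamma and the alpha form, which then maintain each other and the genes of lipid storage. The mammary gland holds its epithelium within a fat pad, and in that epithelium C/EBP beta is needed for the growth of ducts and alveoli and for milk protein genes. C/EBP delta is induced through STAT3 when the gland involutes and during inflammation.

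The starts of 3 of the 4 genes were in the RefSeq promoter table of assembly GRCr8, and the stretches just upstream are shown because the factors are known to act on each other's genes. Each runs 5′ to 3′ on the plus strand over the 250 bases before a start, and capitals mark the motifs TATAA (TATA box), TGACG (the core of a cyclic AMP response element), CCAAT and TTGCNNAA (a loose C/EBP site), read on either strand. Cebpd was not matched in the table.
Cebpa chr1:96896334-96896583: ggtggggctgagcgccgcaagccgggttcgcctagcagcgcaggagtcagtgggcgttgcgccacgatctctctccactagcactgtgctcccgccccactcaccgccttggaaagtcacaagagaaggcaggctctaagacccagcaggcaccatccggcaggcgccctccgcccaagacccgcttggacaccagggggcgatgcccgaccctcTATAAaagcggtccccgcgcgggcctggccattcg
Cebpb chr3:176816755-176817004: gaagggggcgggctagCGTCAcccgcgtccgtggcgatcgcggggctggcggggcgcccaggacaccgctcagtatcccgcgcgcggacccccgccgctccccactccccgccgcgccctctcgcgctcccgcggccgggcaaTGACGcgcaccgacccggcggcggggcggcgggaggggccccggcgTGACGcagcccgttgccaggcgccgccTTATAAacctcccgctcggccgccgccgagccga
Pparg, first start, chr4:150096808-150097057: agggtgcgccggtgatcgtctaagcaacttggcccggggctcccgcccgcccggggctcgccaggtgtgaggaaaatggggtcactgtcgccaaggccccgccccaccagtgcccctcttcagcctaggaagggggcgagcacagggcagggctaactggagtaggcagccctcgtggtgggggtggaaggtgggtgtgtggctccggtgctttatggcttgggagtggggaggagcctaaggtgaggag
Pparg, second start, chr4:150154522-150154771: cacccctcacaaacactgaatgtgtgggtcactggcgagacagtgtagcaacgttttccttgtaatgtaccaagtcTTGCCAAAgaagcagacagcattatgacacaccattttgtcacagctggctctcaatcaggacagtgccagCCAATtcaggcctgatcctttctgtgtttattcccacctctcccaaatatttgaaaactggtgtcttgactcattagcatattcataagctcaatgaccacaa

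The Cebpa and Cebpb stretches carry a TATA box 35 and 33 bases before the start, a motif found in 23.97% of the 33469 promoters of the table. That of Cebpb also reads TATAA on the minus strand, 34 to 30 bases before the start and overlapping the other. Cebpb has 3 copies of TGACG, at 234, 107 and 61 bases before the start, the first on the minus strand, where 18.2% of all promoters hold at least 1. The second Pparg start has 1 loose C/EBP site, TTGCCAAA, 174 bases before it and a CCAAT box 103 bases before it, against 9.22% and 34.0% of all promoters with those motifs. The first Pparg start has neither, but holds 3 GC boxes (GGGCGG, in 30.5% of all promoters), 2 of which overlap. Cebpa and Cebpb hold 2 GC boxes each. None of the 4 stretches holds AGGTCA, the hexamer bound by nuclear receptors (14.1% of all promoters), a direct repeat of it spaced by 1 base (0.0508%), or the C/EBP palindrome TTGCGCAA (0.140%). All were searched on both strands. The guanine and cytosine content was 80% for Cebpb, 67.2% for Cebpa, 67.2% for the first and 44.8% for the second Pparg start, and the median of all promoters was 51.2%. The single Pparg probe set carries the suffix of sets that read several transcripts of a gene, so its signal does not tell the starts apart.

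Median signal was alike on all arrays, 158 to 176, but some arrays stood apart in other measures. The tumour titled X22L had a signal of 75.7 for keratin gene Krt8, a marker of luminal epithelium, on a log2 scale 6.24 against 10.01 to 12.06 in the 23 other tumours. Its summed signal over the 13 luminal markers was 1585, against 15050 to 34270 in those tumours. The normal glands NewN4, NewN6 and X27.1N had summed lymphocyte marker signals of 4318, 7407 and 4617, against 932 to 1196 in the 8 other normal glands. The NewN glands had a wider signal range than X27.1N, X28.1N and Young, with 90th percentiles of 718 to 766 against 644.5 to 698, and their Gapdh 3′ to 5′ signal ratios were 1.05 to 1.39 against 0.963 to 1.07. The summed luminal signal was 8508 to 15180 in NewN glands and 8899, 6145 and 5312 in X27.1N, X28.1N and Young. Adipocyte markers were well measured in every normal gland: the summed signal of 11 such genes was 12910 to 35010, against 610 to 5586 in tumours.

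Against the normal glands, Pparg and Cebpa were lower in the tumours, Cebpb was slightly higher, and the 3 probe sets of Cebpd disagreed. The limma test was fitted over all probe sets, with a call at an adjusted p under 0.05. By this rule 58.2% of all probe sets were called, 33% as higher and 25.2% as lower, so a call by itself sets no gene apart in these data. Of the 6 member probe sets, 2 were called higher, 2 lower and 2 were not called. Log2 changes below are differences between tumours and normal glands in signal floored at 41.6, and the median over all probe sets was 0.04.

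**Figure D1:**
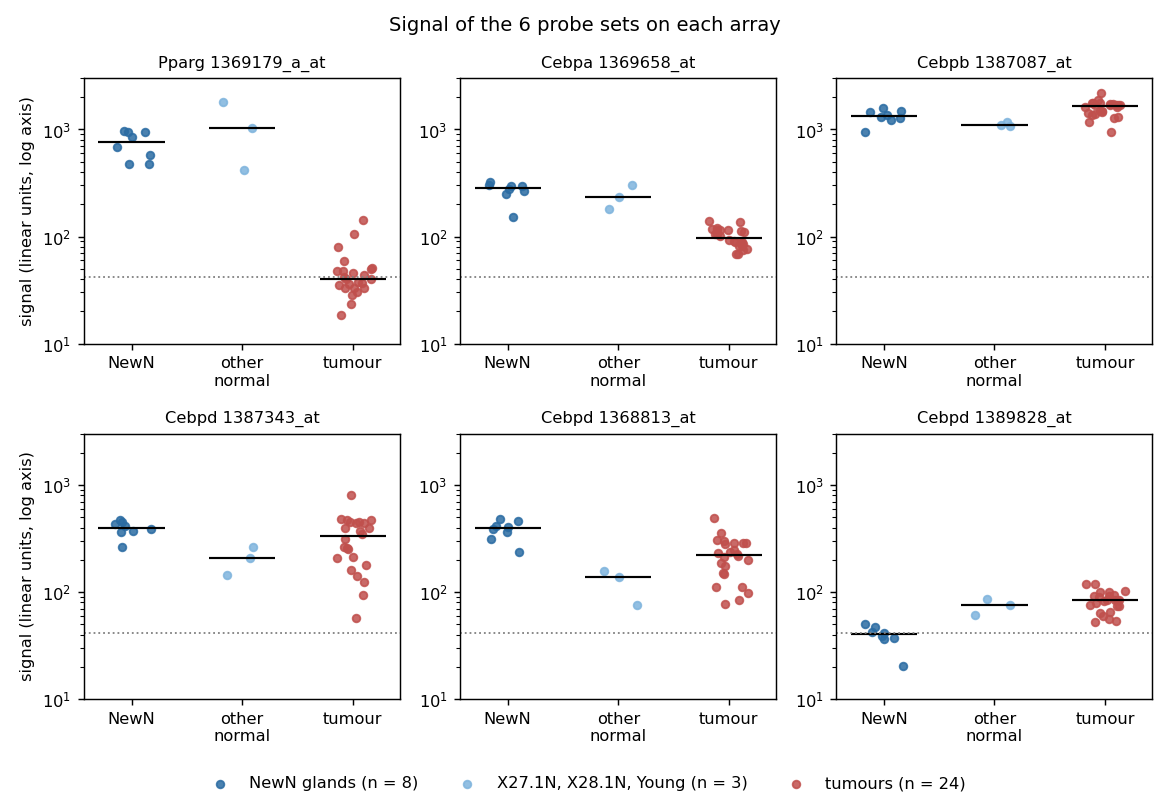
Signal of the 6 probe sets on each array (log axis), by kind of tissue; each point is 1 array, the bar is the median and the dotted line is the floor of 41.6. All 24 tumours lie below all 11 normal glands for Pparg and Cebpa, 14 tumours lie above all normal glands for Cebpb, and the 8 NewN glands lie apart from the 3 other normal glands for Cebpd 1368813_at and 1389828_at.

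Pparg, the receptor that directs fat cell formation, fell furthest. Its signal in the normal glands was lowest in X27.1N at 415, had a median of 850 and was highest in X28.1N at 1824. In the tumours it was lowest in X13 at 18.6, had a median of 40.0 and was highest in X15 at 143. No tumour reached the lowest normal gland, and 13 of the 24 tumours lay at or under the floor. The normal glands averaged 837 ± 398.5 (SD, n = 11) and the tumours 47.5 ± 27.3 (SD, n = 24). The log2 change was -3.96 (SE 0.18, adjusted p = 1.07e-19), and 27 of the 10411 genes had a change below it. Since so many tumours lay at the floor, the size depends on it: the change was -4.14 with a floor at the 5th percentile of all values and -3.17 with one at the 25th. Lower in all 24 tumours than in any normal gland is a pattern held by 2.04% of all probe sets. In bulk tissue, fewer fat cells and less Pparg RNA per cell cannot be told apart. Adipocyte markers moved with Pparg: all 11 measured were called lower, and Lep, the gene of the fat hormone leptin, lay at the floor in every tumour. Their part in the fall of Pparg was not tested.

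The 3 tumours with the most Pparg signal also had the highest summed signal of fat cell markers, though not of each such gene. X15, X22L and X10 had Pparg signals of 143, 107 and 80.0, and the 21 other tumours ranged from 18.6 to 59.7. The summed adipocyte marker signals of these 3 tumours were 5586, 2380 and 1740, against 610 to 1460 in the others. X22L lay at the floor for Fabp4, a marker in that sum. Other cell types moved with them: X22L and X10 had the highest summed fibroblast signals of the tumours (38030 and 35240), and X22L and X15 the highest summed macrophage signals (16940 and 10530). Their part in the Pparg signal was not tested. Within the normal glands, the lowest Pparg signals (X27.1N at 415, NewN4 at 471.5 and NewN6 at 479) were those of the 3 glands with high lymphocyte marker signal. Their summed adipocyte signals, 12910, 20950 and 16690, were also the lowest of the 11 glands. Without these 3 glands the change of Pparg was -4.24 (SE 0.19).

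Cebpa, which with PPAR gamma keeps the fat cell state, fell less. Its normal signals ran from 151 in NewN6 through a median of 277 to 322 in NewN5. Tumour signals ran from 69.0 in X9 through a median of 96.8 to 140 in X22L. The ranges did not overlap, though NewN6 and X22L lay close to each other. Means were 262 ± 54.5 (SD, n = 11) and 99.1 ± 20.2 (SD, n = 24). The log2 change was -1.40 (SE 0.11, adjusted p = 7.36e-13), a fall of 2.635-fold, and 346 genes had a change below it. All tumours stayed above the floor for Cebpa, so this size does not hang on the floor as that of Pparg does. The other normal glands with low Cebpa were X27.1N at 181 and Young at 233, and the remaining 8 had at least 249.

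Cebpb, the form linked to growth and differentiation of the mammary epithelium, had the smallest called change. Normal signals were lowest in NewN6 at 947, had a median of 1282 and were highest in NewN2 at 1595. Among the tumours X27 was lowest at 957, the median was 1665 and X18 was highest at 2172. The groups overlapped: 14 tumours lay above every normal gland, 21 lay above the normal median, and X27, X22L (1166) and X26 (1276) lay below that median. Means were 1278 ± 195 (SD, n = 11) and 1580 ± 257 (SD, n = 24), and the log2 change was 0.30 (SE 0.09, adjusted p = 0.0038), a rise of 1.23-fold. With quantile normalization the rise was 0.59 (adjusted p = 1.73e-06), so its size depends on how arrays are scaled. Against the 8 NewN glands alone it was 0.24 (adjusted p = 0.0402), and with only the glands X27.1N and X28.1N as reference it was 0.46 and did not pass (adjusted p = 0.12).

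Cebpd, the form induced by STAT3 and by inflammation, gave no single answer. The probe set 1387343_at, with the highest mean of the 3, ran from 144 in Young through a median of 368 to 472 in NewN3 in normal glands. In tumours it ran from 57.2 in X22L through 332 to 815 in X8, a 14.25-fold range that enclosed the whole normal range. The means, 343 ± 107 (SD, n = 11) and 325 ± 170 (SD, n = 24), gave a log2 change of -0.22 (SE 0.28, adjusted p = 0.521). The direction turned with the reference, at -0.48 against the NewN glands (adjusted p = 0.181) and 0.48 against X27.1N, X28.1N and Young (adjusted p = 0.575), neither of them a call. Tumours X22L, X27, X26 and X28, at 57.2, 94.3, 125 and 142, lay below every normal gland, and X8, X18 and X15 lay above every one.

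The probe set 1368813_at read the same RefSeq transcript and ranked the arrays alike, with r = 0.943 across the 24 tumours and r = 0.950 across the 11 normal glands, both read from the same arrays. It was lowest in Young at 76.0, had a median of 368 and was highest in NewN7 at 477. Tumours ran from 77.7 in X22L through a median of 223 to 495 in X8. X28.1N, X27.1N and Young, at 157, 139 and 76.0, all lay below the NewN glands, which had 235 to 477. The log2 change over all normal glands was -0.45 (SE 0.26, adjusted p = 0.136). Against the NewN glands alone it was -0.90 (SE 0.24, adjusted p = 0.00191), and against the 3 other glands it was 0.76 (SE 0.39, adjusted p = 0.202). The call and the direction of this probe set therefore turn on which normal glands serve as the reference. Luminal marker signal, signal range and the Gapdh ratio also differed between the NewN glands and the others, as given above, and their part in the difference was not tested.

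The probe set 1389828_at, annotated to Cebpd through an expressed sequence tag, went the other way at a low level. In normal glands it ran from 20.3 in NewN4 through a median of 42.3 to 86.1 in Young, with 5 of the 8 NewN glands at or under the floor. Tumours ran from 52.3 in X32 through a median of 83.9 to 120 in X14. All 24 tumours lay above every NewN gland, but only 9 lay above every normal gland. The log2 change was 0.69 (SE 0.12, adjusted p = 1.84e-05). Against X27.1N, X28.1N and Young it was 0.13 (adjusted p = 0.717), and with the floor at the 25th percentile it was 0.11 (adjusted p = 0.0722). Across normal glands it ran against the other probe sets (r = -0.83 with 1387343_at and -0.90 with 1368813_at, n = 11), and across tumours r was -0.23 and -0.15. As the probe set with the highest mean, 1387343_at stands for Cebpd in what follows.

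**Figure D2:**
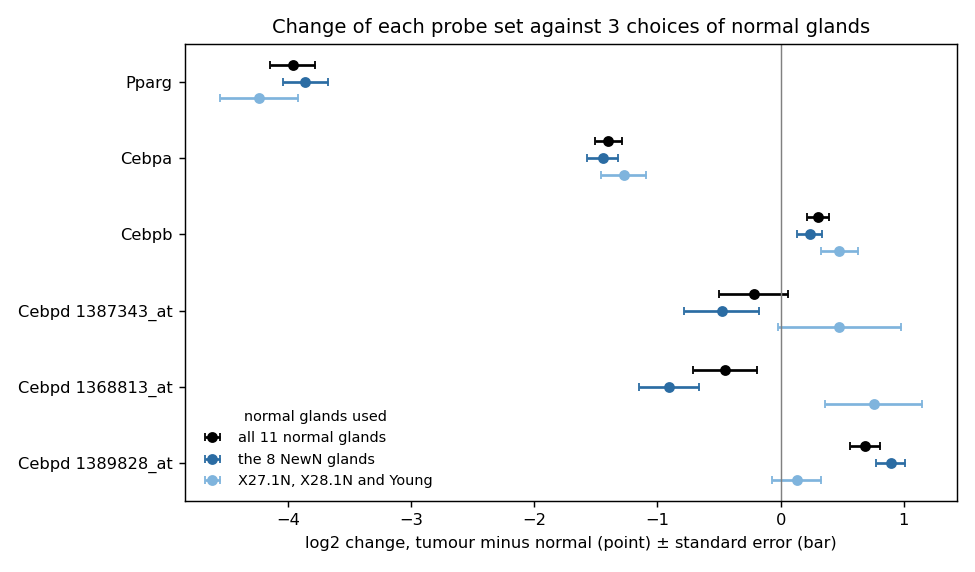
Log2 change of each probe set, tumours minus normal glands (point), with its standard error (bar), for 3 choices of normal glands. Pparg, Cebpa and Cebpb keep their direction with each choice, at -3.86 to -4.23, -1.27 to -1.45 and 0.24 to 0.48, while Cebpd 1368813_at lies at -0.90 with the 8 NewN glands and at 0.76 with the 3 others.

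With all 11 normal glands as the reference, the balance of the 4 factors within an array differed in tumours for each of the 6 pairs. Cebpd was read by 1387343_at alone, and no ratio was taken with its other probe sets. Levels of different genes cannot be compared on these arrays, but the change of a log2 ratio can. The log2 ratio of Pparg to Cebpa changed by -2.56 (SE 0.17, n = 24 and 11, permutation p adjusted over 6 pairs = 1.5e-05). The ratio of Pparg to Cebpb changed by -4.26 (SE 0.24) and that of Cebpa to Cebpb by -1.70 (SE 0.12), both with the same adjusted permutation p, which comes from the smallest p that 100000 permutations can give, 1e-05. All 24 tumours lay below every normal gland for these 3 ratios. The ratios with Pparg hold a constant in the 13 tumours at its floor, so their sizes depend on it: that of Pparg to Cebpa was -2.74 with a floor at the 5th percentile and -1.80 with one at the 25th. Against Cebpd, Pparg changed by -3.74 (SE 0.36, the same adjusted permutation p, 23 tumours below every normal gland). Cebpa changed against Cebpd by -1.18 (SE 0.26, adjusted permutation p = 0.00174), with 18 tumours below every normal gland and 1 above. The ratio of Cebpb to Cebpd rose by 0.52 (SE 0.20, adjusted permutation p = 0.0339), with 6 tumours above every normal gland and 1 below. That last rise was 0.002 against X27.1N, X28.1N and Young (adjusted permutation p = 0.995) and 0.51 without NewN4, NewN6 and X27.1N (adjusted permutation p = 0.0806).

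Some titles share a number, and whether it marks a shared animal is not stated in the labels. Tumour X27 against gland X27.1N differed in log2 signal by -3.19 for Pparg, -0.66 for Cebpa, -0.31 for Cebpb and -1.50 for Cebpd. Tumour X28 against gland X28.1N differed by -5.24, -1.36, 0.43 and -0.56 for the same genes. Pparg and Cebpa were thus lower in the tumour of both pairs, while Cebpb was lower in X27 and higher in X28. The tumours X29.1 and X29.2 differed by at most 0.101 for Cebpa, Cebpb and Cebpd, and X25L minus X25R was 0.35, -0.04 and 0.09 for these genes. For Pparg, X29.1 (37.5) and X25R (35.5) lay under the floor, so no difference is given for these pairs.

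Among the tumours alone, the 4 factors fell into pairs: Pparg with Cebpa and Cebpb with Cebpd. Across the 24 tumours 18 relations were tested, 6 among the factors and 12 with marker genes. The markers were Fabp4 for fat, Krt8 for luminal cells and Csf1r for macrophages. By Pearson correlation (r) 5 passed. By rank correlation (rho) only those of Pparg with Cebpa and of Cebpb with Cebpd passed. Pparg and Cebpa had r = 0.574 (adjusted permutation p = 0.00888) and rho = 0.624 (adjusted permutation p = 0.0136). Without X15 and X22L, the tumours farthest in Pparg, r was 0.537 (unadjusted permutation p = 0.00466). Without X22L alone r was 0.48 and no longer passed (adjusted permutation p = 0.061). The 13 tumours at the floor for Pparg carry no order in it.

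Cebpb and Cebpd had r = 0.707 (adjusted permutation p = 0.00288) and rho = 0.634 (adjusted permutation p = 0.0136). X22L and X27 were low in both, and without them r was 0.517 (unadjusted permutation p = 0.0143). The other 4 pairs of factors had r from -0.20 to -0.43, and none passed. Cebpa against Cebpd came nearest, at r = -0.431 (adjusted permutation p = 0.0909).

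**Figure D3:**
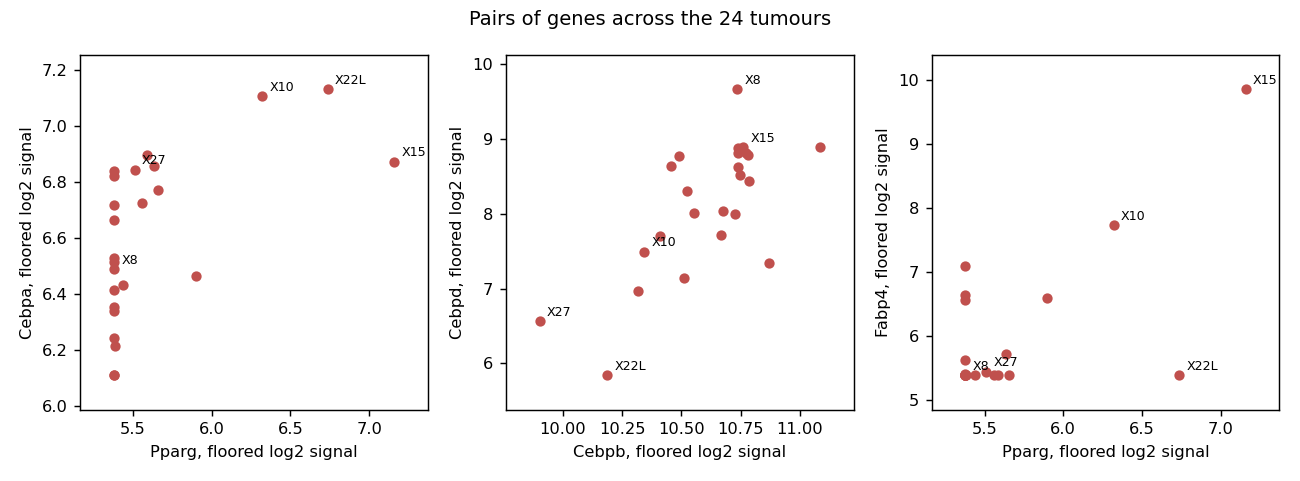
Floored log2 signal of pairs of genes across the 24 tumours, 1 point each, with the tumours X8, X10, X15, X22L and X27 named. Cebpa against Pparg has r = 0.574 with 13 tumours at the floor for Pparg, Cebpd against Cebpb has r = 0.707, and Fabp4 against Pparg has r = 0.682 with X15 far from the rest and X22L at the floor for Fabp4.

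With the marker genes, Pparg had r = 0.682 with Fabp4, the fatty acid binding protein gene of fat cells (adjusted permutation p = 0.0252), while rho was 0.244 (adjusted permutation p = 0.492) and r without X15 and X22L was 0.595 (unadjusted permutation p = 0.0131). Pparg had r = 0.701 with Csf1r, the macrophage growth factor receptor gene (adjusted permutation p = 0.00888), and rho = 0.47 (adjusted permutation p = 0.105). That relation rested on X15 and X22L, without which r was 0.378 (unadjusted permutation p = 0.075). Cebpa had r = 0.522 with Csf1r (adjusted permutation p = 0.0288) and rho = 0.462 (adjusted permutation p = 0.105). Its r fell to 0.376 without X10 and X22L (unadjusted permutation p = 0.0841) and to 0.42 without X22L alone (adjusted permutation p = 0.148). No relation of Cebpb or Cebpd with these 3 genes passed, though with quantile normalization that of Cebpb with Csf1r did (r = -0.49, adjusted permutation p = 0.0458). That of Cebpd with Krt8 was 0.367 over all tumours and -0.381 without X22L and X27. X22L had the lowest log2 signal of both genes, 5.84 for Cebpd and 6.24 for Krt8. X27 was low in Cebpd (6.56) but not in Krt8 (11.38).

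The genes whose signal ran most like each factor were taken from 9971 genes over all 35 arrays and 9817 genes over the 24 tumours. Correlations over all arrays include the difference between tumours and normal glands, and those over tumours do not. Over all arrays Pparg ran most like Ghr, the growth hormone receptor gene (r = 0.988), Cd36, a fatty acid transporter gene (0.9845), Arxes1 (0.982), Ramp1 (0.981) and Trarg1, a gene of glucose transporter traffic in fat cells (0.981). Cebpa ran most like Fhl1 (0.951), Palm (0.9425), Pparg itself (0.941), Clec3b (0.939) and Slc1a5, a glutamine transporter gene (0.938). For Cebpb the values were lower, led by Pmepa1 (0.768) and Tcim (0.738), then Cracdl (0.729), Nck2 (0.725) and Frk (0.7235). Cebpd ran most like Cd14, a receptor gene for bacterial lipopolysaccharide (0.849), Cp, which encodes the acute phase protein ceruloplasmin (0.847), Stat3 (0.824), Tmprss2 (0.822) and Aldoc (0.809).

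Over the tumours alone the 5 genes most like Pparg were Rarres2, which encodes the adipokine chemerin (r = 0.854), Emp3 (0.842), Fgl2 (0.839), Fads3 (0.818) and Fxyd1 (0.816). Those most like Cebpa were Clic3 (0.764), Lyl1 (0.7145), Pnpla4 (0.711), Kalrn (0.696) and Teddm1a (0.694). Clic3 and Pnpla4 had low signal: with the floor at the 25th percentile their changes between tumours and normal glands were 0 and -0.009. Cebpb ran most like the amino acid transporter subunit gene Slc3a2 (0.791), Cp (0.767), Aldoc (0.764), Rabac1 (0.754) and Cd14 (0.744). Cebpd ran most like Rab38 (0.886), Cd14 (0.853), Cp (0.839), Rabac1 (0.837) and Tmprss2 (0.836). Cp, Rabac1 and Cd14 thus stood in the lists of both Cebpb and Cebpd, which are themselves correlated across these tumours. None of the 5 genes named for Pparg over all arrays was among its 5 over the tumours. The ranking over tumours took only genes above the floor in at least 12 tumours. Cd36, at the floor in 16 of the 24, could not enter it, so part of this difference was set by the filter.

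The genes around these factors were counted by role, with 1 probe set per gene, against a background of 31.4% of all genes called higher and 27.5% called lower and a median change of 0.02. Among the other PPAR family members, partner receptors and coregulators, 16 of 21 listed genes were measured: 4 were higher, 6 lower and 6 not called, with a median of -0.02. Nr1h3, the liver X receptor alpha gene, fell by 2.43 on the log2 scale (SE 0.13, adjusted p = 3.15e-18), from a mean signal of 264 to 41.5, and lay below every normal gland in all 24 tumours. With 15 tumours at the floor its size depends on it, at -2.67 with a floor at the 5th percentile and -1.61 with one at the 25th. Rxrb, a retinoid X receptor gene and so a partner of PPAR gamma, changed by -0.56, while Rxra, the partner usual in fat cells, was not called (-0.10, adjusted p = 0.308). Against X27.1N, X28.1N and Young, Rxrb changed by -0.19 and was not called (adjusted p = 0.581). Rxrg, a further retinoid X receptor gene, was called lower (-0.30, adjusted p = 0.00841). The coactivator gene Ncoa2 changed by -0.56, but by 0.09 against X27.1N, X28.1N and Young. Ppara, the PPAR of fatty acid oxidation, rose by 0.82 (adjusted p = 1.36e-06), the corepressor gene Ncor1 by 0.57 and the coactivator gene Ppargc1a by 0.50. Ppargc1a lay near the floor, and its call was lost with a floor at the 25th percentile (0.044, adjusted p = 0.203). Ppard was not called (0.20, adjusted p = 0.18), though with quantile normalization it was (0.41) and 7 rather than 4 genes of this group were higher.

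Of 13 other C/EBP proteins, leucine zipper partners and tribbles genes, all measured, 1 was higher, 6 were lower and 6 not called (median -0.30). Cebpg, a short C/EBP form, fell by 0.59 (SE 0.09, adjusted p = 5.25e-07), and Cebpe, the form of myeloid cells, was not called (0.16, adjusted p = 0.243). The largest falls were those of the clock output gene Dbp (-1.71), Atf5 (-1.53) and Ddit3, which encodes the dimer partner CHOP (-0.81). Atf4, a stress factor gene, changed by -0.33 but by -0.05 with quantile normalization (adjusted p = 0.518). Trib3, a tribbles pseudokinase gene, was higher by 0.33, but -0.05 against X27.1N, X28.1N and Young.

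Upstream regulators of fat cell formation were measured for 28 of 32 listed genes, with 8 higher, 17 lower and 3 not called (median -0.52). Ebf1, an early factor of fat cell precursors, fell by 2.20 (SE 0.16, adjusted p = 7.97e-14) and was below every normal gland in all 24 tumours. Id3, an inhibitor of helix-loop-helix factors, fell by 2.15, Klf4 by 2.09 and Srebf1, a regulator of lipid synthesis, by 0.81. Id2, a relative of Id3, went the other way (0.998, SE 0.21, adjusted p = 0.000126), as did Bhlhe40 (0.65) and Egr2 (0.54). Against X27.1N, X28.1N and Young, Id2 changed by 0.12 (adjusted p = 0.864) and Egr2 by 0.15 (adjusted p = 0.7535). Srebf1 changed by -0.56 against these glands and was not called either (adjusted p = 0.235).

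The adipocyte targets of PPAR gamma and C/EBP alpha showed the largest shift of the 7 groups. Of 31 measured among 36 listed, 27 were lower, 1 was higher and 3 were not called, with a median of -3.19. Fabp4 fell by 6.13 (SE 0.32, adjusted p = 5.29e-18), from a mean signal of 4363 ± 1117 (SD, n = 11) to 86.8 ± 185.5 (SD, n = 24), with 14 tumours at the floor. Cfd, the complement factor D gene, fell by 6.10, and the change of Cd36 was -5.035. Fasn, the fatty acid synthase gene, which epithelium also uses, fell by 1.42 (SE 0.18). Pdk4, Fabp5 and Gk were not called, and Gk lay at the floor in all 11 normal glands. Ucp1 was called higher by 0.16 near the floor, a call lost with quantile normalization (0.07, adjusted p = 0.315). All 14 genes listed as adipocyte markers are also in this list, so it is no separate measure from fat content. The same count, 27 lower, was found against X27.1N, X28.1N and Young.

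Of the interleukin 6 and STAT3 pathway, upstream of Cebpd, 15 of 19 listed genes were measured, with 3 higher, 4 lower and 8 not called (median 0.04). The receptor genes Il6r and Il6st fell by 1.37 and 0.91 (SE 0.14 and 0.11), and the phosphatase gene Ptpn11 by 0.52. Stat3 itself was not called (-0.05, adjusted p = 0.83), with means of 1552 ± 447.5 (SD, n = 11) and 1496 ± 436 (SD, n = 24). Junb rose by 0.52, the cytokine gene Il11 by 0.41 and Pias3, which encodes an inhibitor of STAT3, by 0.32. Against X27.1N, X28.1N and Young, Il11 changed by 0.11 (adjusted p = 0.58) and Ptpn11 by -0.29 (adjusted p = 0.134), and neither was called.

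Acute phase and inflammatory genes known as C/EBP beta or delta targets were all measured, 20 in number: 9 were higher, 1 was lower and 10 were not called (median 0.31). The complement gene C3 rose by 1.71 (SE 0.35, adjusted p = 9.95e-05), the chemokine gene Cxcl1 by 0.92 and the interleukin 1 antagonist gene Il1rn by 0.74. Cxcl1 did not pass against the NewN glands alone (0.72, adjusted p = 0.0556). Serpina3n, a protease inhibitor gene, fell by 4.02 (SE 0.29, adjusted p = 7.30e-14) and lay at the floor in 20 tumours. Lcn2 and Lbp, both with high signal, were not called (0.68, adjusted p = 0.0746, and -0.56, adjusted p = 0.376). Lcn2 was called higher with quantile normalization (0.83), with array weights (0.49) and without X22L (0.87). Cd14 and Cp, most like Cebpd across arrays, were not called either (-0.15, adjusted p = 0.699, and -0.51, adjusted p = 0.179). Cp was called lower against the NewN glands alone (-0.94, adjusted p = 0.017) and with array weights (-0.72, adjusted p = 0.00777). In both alternatives Cebpd 1368813_at was called lower too, but 1389828_at was called higher (0.89 and 0.80). The probe set that stands for Cebpd, 1387343_at, was not called in either (-0.48 and -0.36).

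Mammary epithelial genes linked to C/EBP beta were measured for 13 of 14 listed, with 6 higher and 7 not called (median 0.39). The growth factor gene Areg rose by 1.49 (SE 0.37, adjusted p = 0.000797), the prolactin receptor gene Prlr by 1.21 (SE 0.33) and Wnt4 by 1.16 (SE 0.26). The milk protein genes Csn1s1 and Csn3 were not called (-0.84, adjusted p = 0.094, and 0.39, adjusted p = 0.413), though with array weights Csn1s1 was called lower (-1.04, adjusted p = 0.0142). Luminal epithelial markers moved alongside, with 8 of 13 called higher, 5 not called and a median of 0.86. Krt18, called higher, stands in both lists, so they are not fully separate measures. With the 8 NewN glands as the reference 3 luminal markers were higher, and without X22L 12 were. Their part in the changes of this group was not tested.

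**Figure D4:**
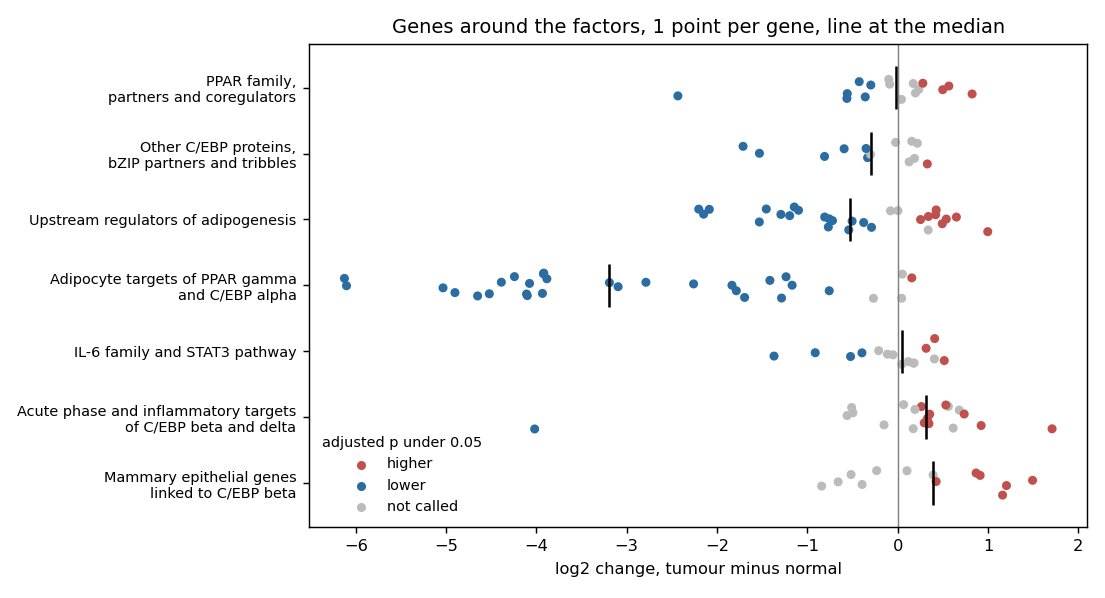
Log2 change, tumours minus normal glands, of each measured gene in 7 groups around the factors; 1 point is 1 gene, the colour gives the call at an adjusted p under 0.05 and the bar is the group's median. Adipocyte targets have a median of -3.19 with 27 of 31 genes lower, while acute phase genes and mammary epithelial genes have medians of 0.31 and 0.39.

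With X27.1N, X28.1N and Young alone as the reference, fewer genes were called in most of these groups. The PPAR family then had 2 calls and the other C/EBP and zipper genes 3, all lower, and the upstream regulators had 3 higher and 9 lower. Acute phase genes had 1 higher and 1 lower, and mammary epithelial genes had 1 higher. Only 3 normal glands enter that comparison, and it called 1073 probe sets higher and 1585 lower. For genes with tumours at the floor the size of a fall depends on the floor: with it at the 25th percentile the change was -5.42 for Fabp4, -4.305 for Cd36, -3.14 for Serpina3n and -1.58 for Ebf1, all still called.

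Markers of other cells also differed between the groups of samples. All 7 fibroblast markers were lower (median -2.49). So were 6 of 9 macrophage, 6 of 8 lymphocyte, 4 of 4 skeletal muscle, 3 of 4 endothelial and 4 of 8 basal markers. The macrophage marker Aif1 (0.47) and the lymphocyte marker Cd2 (0.42) were called higher. Among all genes 27.5% were called lower and 31.4% higher. Against X27.1N, X28.1N and Young, 1 of the 7 fibroblast markers was called lower. Summed macrophage signal was 6346 to 14100 in normal glands and 2632 to 16940 in tumours, with X22L highest. The part of these cells in the changes of the 4 factors was not tested.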

How the data were processed

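Per the labels, total RNA from 11 normal rat mammary glands and 24 tumours induced with NMU was measured on 1 array each. The authors deposited 1 intensity per probe set on a linear scale, with a lowest value of 1 (0.649% of values); the sources used here name no software, background correction or scaling, and values were used as scaled at deposit. Control probe sets (57) were dropped. Before log2 was taken, lower values were raised to the 10th percentile, 41.6. Probe sets were named from the platform annotation by their single gene symbol (12783), while 312 with several symbols and 2771 with none were not; 12748 Entrez identifiers matched the RefSeq table of GRCr8, and 0 symbols changed. A gene with several probe sets was read by the one with the highest mean.

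The test was limma's (version 3.58.1, R 4.3.3), a linear model followed by eBayes with a trended, robust variance prior, on all 15866 probe sets and 35 arrays, two-sided, with Benjamini-Hochberg adjustment over all of them. On simulated arrays this test recovered 86% of 1.5-fold, 94% of 2-fold and 100% of 4-fold changes and called 0.0638% of unchanged probe sets. The simulation changed only 50 probe sets per fold, all with a mean well above the floor, and its noise was independent between arrays. These rates need not hold in the real data, where 58.2% of probe sets were called, or for probe sets near the floor. Ratios and correlations were tested with two-sided permutation tests (100000 permutations, exact enumeration with 2 or 3 normal glands). Relations across tumours were adjusted over 18 relations. The number of arrays limits the precision.

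The 4 genes and all gene lists were chosen with earlier results of these data known. Named genes are every member probe set, the called genes among the 3 largest rises and 3 largest falls of each list, its 2 genes with the highest mean signal, the 5 genes most like each factor (Pearson r of floored log2 signal, among genes above the floor in at least 12 arrays or tumours), and Fabp4, Krt8 and Csf1r. Other genes were named after their values were seen. Alternatives covered scaling, the floor, the spread model, array weights, the normal glands used, single arrays that stood apart, title numbers, dim probe sets and the probe sets per gene. Replicate numbers were assigned in order and pair no samples. A title number is shared by 2 pairs of a tumour and a gland, by the tumours X25L and X25R, and by the tumours X29.1 and X29.2.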

Additional observations from a re-analysis of the deposited data

Results flagged for a closer look

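Among the 8 NewN glands, the Cebpa signal of NewN6 was 151.4 and that of the next lowest, NewN4, was 249, a gap that spans 0.573 of the range of these 8 glands and so lies far from the others. Such a gap turns up by chance in about 1 in 20 groups. NewN6 also had the lowest Cebpb signal of all normal glands (947), the highest summed lymphocyte marker signal (7407) and the lowest summed luminal marker signal of the NewN glands (8508). Without NewN4, NewN6 and X27.1N, Cebpa was still called lower.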

How the results depend on the processing

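Pparg and Cebpa were called lower under each alternative that gave them a value, apart from the replicate block on the title number, which uses only X27, X27.1N, X28 and X28.1N. That block of 2 pairs gave -4.215 for Pparg (adjusted p = 0.287), -1.01 for Cebpa (adjusted p = 0.289), 0.0605 for Cebpb and 0.52 for Cebpd 1389828_at. With limma it called 0 probe sets higher and 0 lower (2736 at an unadjusted p under 0.05), and it reversed Id2 (-0.25), Tcim (-0.52) and Ncoa2 (0.37). Against X27.1N, X28.1N and Young, 1073 probe sets were higher and 1585 lower, Cebpd 1389828_at changed by 0.13, the ratio of Cebpb to Cebpd by 0.00197, and Ncoa2 (0.0862) and Trib3 (-0.0488) reversed. Against X27.1N and X28.1N, 439 were higher and 927 lower, Cebpb changed by 0.46, Cebpd 1389828_at by 0.25, the ratios of Cebpa and Cebpb to Cebpd by -1.51 and 0.22, and Ncoa2 (0.0614) and Trib3 (-0.0213) reversed. Cebpd 1368813_at passed as lower against the NewN glands (-0.90), with array weights (-0.80) and without Young (-0.64). Cebpd 1389828_at was 0.11 with the floor at the 25th percentile, and the ratio of Cebpb to Cebpd was 0.51 without NewN4, NewN6 and X27.1N. Of all calls 56.7% were higher, against 40.4% with the 3 other glands, 32.1% with X27.1N and X28.1N, and 43.7% with only the brighter probe sets tested (2077 higher, 2673 lower). That last alternative does not hold Pparg, Cebpa or Cebpd 1389828_at and was not applied to ratios. Beyond fewer arrays or probe sets, the causes were not tested. Low signal limits Pparg in tumours and Cebpd 1389828_at in NewN glands.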
